A study of Mus musculus with 10 samples.

Results

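The comparison was between 4T1 cells given an antisense morpholino oligonucleotide against U1 small nuclear RNA (4T1-U1-ASO, 2 libraries) and 4T1 cells without it (4T1, 2 libraries). 4T1 is a mouse mammary tumour cell line whose libraries are labelled as invasive tumour cells. Every intronic polyadenylation (IPA) site that the authors listed as raised or lowered for this pair of groups was included, which gave 1561 sites in 1131 genes, out of 2311 sites listed over the 5 comparisons of the series, in 4 of its 10 libraries. A site entered the authors' deposited tables only with an adjusted p of at most 0.1 on these same libraries, so its change in use is what it was chosen by and is described here without a test. The morpholino was delivered with Endo Porter at 6 µl per mL of medium, and its dose and the length of treatment are not in the labels. A mock transfection is named as the control in the series' design text, and no treatment stands in the labels of the 4T1 samples. Whether replicates 1 and 2 are separate cultures is not labelled, so every p-value refers to the spread among these 4 libraries, and that spread may be technical.

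U1 is the RNA of the splicing particle that pairs with 5′ splice sites at the start of introns. Apart from splicing, U1 bound to a nascent transcript is known to keep poly(A) signals inside introns from being used, and blocking it with an antisense oligonucleotide is known to release such signals. A transcript that ends at an IPA site lacks the exons downstream of it, last exon (LE) included. The assay sequenced polyadenylated 3′ ends, so each IPA site and each last exon has a read count, and the usage of a site is the percentage IPA/(IPA+LE) within 1 library. Library size cancels in that percentage. U1 RNA has no poly(A) tail, so neither its level nor the extent of the block was measured.

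Peak lists held 2538453 and 2587766 reads on chromosomes 1 to 19 in the 4T1-U1-ASO libraries and 2499475 and 2795040 in the 4T1 libraries. The median site had 318 and 323 IPA plus LE reads in the 4T1-U1-ASO libraries and 259 and 342 in the 4T1 libraries. The 4T1 libraries differed from each other more than the 4T1-U1-ASO libraries did. Among 1112 last exons with a mean of at least 20 reads, 1 was over 2-fold apart between the 4T1-U1-ASO libraries and 81 between the 4T1 libraries after size-factor scaling, and in 78 of these 81 replicate 1 was the lower. The genes of those 78 last exons carried 69 of the sites used more and 25 of the sites used less in 4T1-U1-ASO. Of 17 mammary epithelial markers only Cdh1 was in the tables, of 13 mesenchymal markers only Vim and Fn1, and of 5 immune and 3 endothelial markers 0, so the cell type could not be checked from lists that hold changed genes only.

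Usage was higher in 4T1-U1-ASO at 1368 of the 1561 listed sites (87.6%) and lower at 193 (12.4%). In an edgeR fit of IPA relative to LE, all of them passed an adjusted p of 0.05 in the same direction under the authors' size factors, and 1359 (87.1%) and 191 (12.2%) under peak-list scaling, which adds no support to a selection made on the same reads. The higher sites lay in 980 genes and the lower sites in 176. Sites that were raised were mostly little used in 4T1. Their median usage was 5.26% and 4.92% in the 4T1-U1-ASO libraries and 0.600% and 0.764% in the 4T1 libraries, and the difference of group means had a median of 4.14 percentage points. The middle of the raised sites, between the 25th and 75th percentile, ran between 2.42% and 11.6% in 4T1-U1-ASO and between 0.179% and 2.44% in 4T1. At 205 raised sites both 4T1 libraries had 0 IPA reads. By definition no raised site can be at 0 in both 4T1-U1-ASO libraries. Lowered sites ran the other way, with a median usage of 2.31% and 1.77% in the 4T1-U1-ASO libraries and 15.6% and 11.3% in the 4T1 libraries, and 15 of them had 0 IPA reads in both 4T1-U1-ASO libraries.

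The spread between libraries was smaller than these differences. At raised sites the 2 libraries of a group differed by a median of 1.12 points in 4T1-U1-ASO and 0.401 points in 4T1, and at lowered sites by 0.80 points in 4T1-U1-ASO and 3.27 points in 4T1. The 4 libraries separated by group at 1366 of the 1368 raised sites and at all 193 lowered sites, that is at 87.5% and 12.4% of all listed sites, which the authors' selection makes likely. Most sites remained minor ends. In 4T1-U1-ASO 35 raised sites reached a usage of 50% or more and 378 lay between 10% and 50%, against 3 and 79 in 4T1. Of the lowered sites, 13 were at 50% or more in 4T1-U1-ASO and 34 in 4T1. IPA reads made up 8.99% and 8.84% of all listed reads in the 4T1-U1-ASO libraries and 3.59% and 3.58% in the 4T1 libraries.

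**Figure D1:**
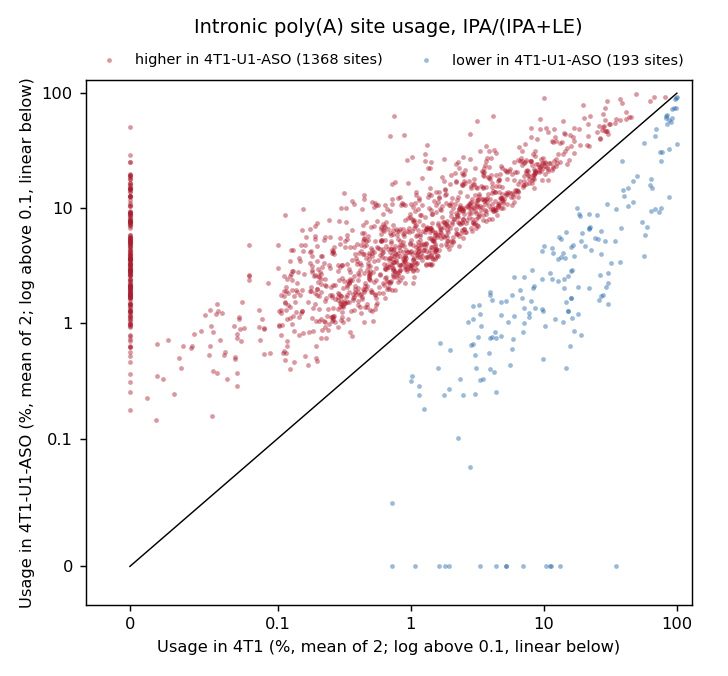
Usage of each of the 1561 listed sites, with the mean of the 2 4T1-U1-ASO libraries on the vertical axis and of the 2 4T1 libraries on the horizontal axis (percent, logarithmic above 0.1 and linear below). Raised sites (red, 1368) lie above the diagonal, 205 of them at 0 in 4T1, and lowered sites (blue, 193) lie below it; the empty band along the diagonal is left by the authors' threshold.

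Large changes were seen at several genes of RNA processing. Among the sites with the highest log2 fold change in the authors' deposited table, 1 per gene, were those in Sfpq, Luc7l2, Srsf3, Tra2a, Cpsf6, Zfp207 and Ywhaz. Luc7l2, a relative of a yeast U1 particle protein, had its sixth site counted from the 5′ end at chr6:38518959-38519747 on the plus strand (mm9) used at 43.4% and 42.6% in the 4T1-U1-ASO libraries and at 0% and 1.79% in the 4T1 libraries. The last site of Tra2a, a splicing activator of the SR family, stood at 37.3% and 33.4% in the 4T1-U1-ASO libraries and at 0% and 2.66% in the 4T1 libraries. Sfpq, an RNA-binding protein of paraspeckles, had a site at chr4:126704982-126705337 with 85 and 69 IPA reads in the 4T1-U1-ASO libraries and 0 and 4 in the 4T1 libraries. The groups did not overlap at any of these sites, as at 1366 of the 1368 raised sites. Usage at Sfpq was 9.81% ± 0.790 in 4T1-U1-ASO and 0.156% ± 0.220 in 4T1 (SD, n = 2 each), so that the last exon kept most reads although the ratio changed by 5.81 ± 0.54 on the log2 scale (SE, edgeR).

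A site in Srsf3, an SR splicing factor, had a usage of 12.4% and 11.7% in the 4T1-U1-ASO libraries and of 0.349% and 0.541% in the 4T1 libraries. Cpsf6, a subunit of the cleavage factor that binds upstream of poly(A) sites, had 9.70% and 7.91% in the 4T1-U1-ASO libraries and 0% and 0.226% in the 4T1 libraries. Zfp207, a zinc finger protein of the mitotic kinetochore, had 9.62% and 10.1% in the 4T1-U1-ASO libraries and 0.566% and 0.295% in the 4T1 libraries. The smallest usage among these sites was at Ywhaz, the 14-3-3 zeta adaptor. It had 15 and 15 IPA reads beside 4175 and 4080 last-exon reads in the 4T1-U1-ASO libraries and 0 and 0 beside 5408 and 5931 in the 4T1 libraries, where 0 reads allow a usage of up to 0.0265% (3 counts over the group's reads, counting error only).

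Ranked by percentage points among sites with at least 20 IPA plus LE reads in each library, the leading genes included Nudt5, Acyp2, Srsf10, Tra2b, Luc7l2, Cars2 and Sarnp. Tra2b, the paralogue of Tra2a, had the site with most reads among these, at chr16:22258935-22259386 on the minus strand. It had 516 and 686 IPA reads beside 514 and 672 last-exon reads in the 4T1-U1-ASO libraries and 19 and 68 beside 341 and 568 in the 4T1 libraries. The site thus drew about as many reads as the last exon in 4T1-U1-ASO, with 50.3% ± 0.296 usage there and 7.98% ± 3.83 in 4T1 (SD, n = 2 each). Srsf10, an SR-like splicing regulator, had 52.4% and 61.7% in the 4T1-U1-ASO libraries and 9.43% and 18.4% in the 4T1 libraries. Nudt5, a hydrolase of ADP-sugars, reached 88.5% ± 1.13 in 4T1-U1-ASO, against 37.1% ± 25.5 in 4T1 (SD, n = 2 each), whose libraries were far apart and rested on 17 and 13 last-exon reads. At none of these sites did the groups overlap, which was a condition of this ranking. Cars2, the mitochondrial cysteinyl-tRNA synthetase, had 61.0% and 66.7% in the 4T1-U1-ASO libraries and 21.6% and 22.7% in the 4T1 libraries, and here the site's own reads were 25 and 32 in 4T1-U1-ASO against 21 and 27 in 4T1, while the last exon had 16 and 16 reads against 76 and 92. Sarnp, a nuclear RNA-binding protein, was shallow, with 59.3% and 28.6% in the 4T1-U1-ASO libraries against 0% and 5.56% in the 4T1 libraries.

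Going by the authors' deposited table, the lowered sites with the most negative log2 fold change included those at Epha2, Tmem167, Uchl5, Dancr, Gpr107, Ahdc1 and Pvt1. The second listed site of Epha2, an ephrin receptor kinase, at chr4:140881153-140881299 on the plus strand, had 0 and 0 IPA reads in the 4T1-U1-ASO libraries and 20 and 25 in the 4T1 libraries. Its last exon had 951 and 880 reads in the 4T1-U1-ASO libraries and 642 and 673 in the 4T1 libraries, and 0 reads allow a usage of up to 0.164% in 4T1-U1-ASO, against 3.30% ± 0.396 in 4T1 (SD, n = 2). Uchl5, a deubiquitinase of the proteasome, had a usage of 2.27% and 2.26% in the 4T1-U1-ASO libraries and of 38.2% and 22.5% in the 4T1 libraries at its first site. Tmem167 had 5 and 2 IPA reads in the 4T1-U1-ASO libraries and 89 and 102 in the 4T1 libraries. These values are of the reads the sites were ranked by, and they are given as a description.

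Dancr and Pvt1 are long noncoding RNA genes. The site of Dancr at chr5:74489121-74489333 on the plus strand had a usage of 9.52% and 9.09% in the 4T1-U1-ASO libraries and of 79.8% and 66.7% in the 4T1 libraries, with 2 and 2 IPA reads against 158 and 110. For Pvt1 usage was 4.33% and 1.13% in the 4T1-U1-ASO libraries and 37.9% and 23.0% in the 4T1 libraries. Noncoding genes gave 13 of the 1131 genes, with 11 raised and 8 lowered sites.

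By percentage points the leading falls included those at Dancr, Slc22a4, Smarcad1, Rrm2b, Macrod1, Eif4a2 and Stag1. Eif4a2, a helicase of translation initiation, had 30 and 37 IPA reads in the 4T1-U1-ASO libraries and 149 and 141 in the 4T1 libraries, with a usage of 25.9% and 35.9% against 84.2% and 65.0%. Smarcad1, a chromatin remodeller, had a usage of 26.5% and 24.7% in the 4T1-U1-ASO libraries and of 88.5% and 64.4% in the 4T1 libraries. Its last exon had 7 and 32 reads in the 4T1 libraries. Macrod1, which removes ADP-ribose from proteins, had 38.6% and 23.7% in the 4T1-U1-ASO libraries and 76.3% and 77.4% in the 4T1 libraries. Its IPA reads were alike, 32 and 23 in 4T1-U1-ASO against 29 and 24 in 4T1, while its last exon had 51 and 74 reads against 9 and 7. The groups did not overlap at any of these sites, again by the way they were chosen. At Rrm2b, a ribonucleotide reductase subunit known as a p53 target, the IPA reads themselves were alike, with 24 and 15 in the 4T1-U1-ASO libraries and 15 and 21 in the 4T1 libraries, while the last exon had 96 and 113 reads against 5 and 21. Slc22a4, an organic cation transporter, had a usage of 13.6% and 0% in the 4T1-U1-ASO libraries and of 85.7% and 33.3% in the 4T1 libraries, where replicate 1 had only 3 last-exon reads. The last exons of Eif4a2 (28 and 76 reads) and Stag1 (29 and 100) were also lower in 4T1 replicate 1 than in replicate 2. At Smarcad1, Rrm2b, Slc22a4, Eif4a2 and Stag1 the size of the fall thus rests in part on 4T1 replicate 1.

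**Figure D2:**
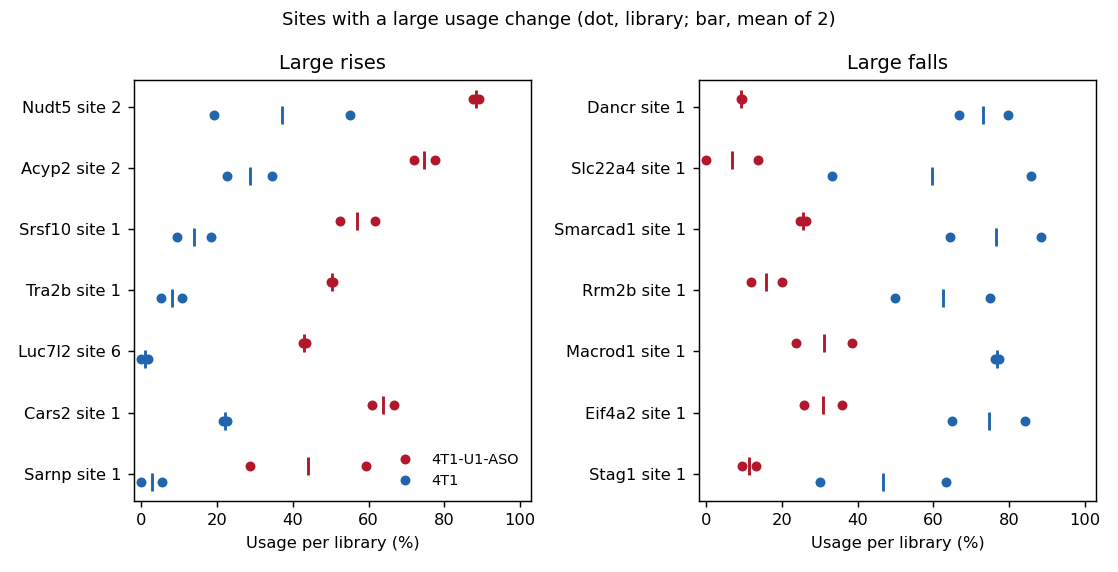
Usage in each library (dots, percent) and the mean of 2 (bars) for sites among those with the largest rise (left) and the largest fall (right) in usage, with at least 20 reads in each library, 4T1-U1-ASO in red above 4T1 in blue. The groups do not overlap at any site shown, since only such sites were ranked, and the 4T1 libraries lie far apart at Nudt5, Slc22a4 and Stag1.

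Most genes had a single listed site. There were 863 genes with 1 site, 172 with 2, 62 with 3 and 34 with 4 or more, so that 268 genes (23.7%) carried 698 of the sites, over a median span of 9535 bases. Anxa3 and Chka had 9 each, Tra2a 8 and Zwint 7. Sites of 1 gene share its last exon and are not independent. Counted together, the listed sites of a gene with raised sites only took a median of 7.11% of its reads in 4T1-U1-ASO and 1.08% in 4T1, and 35 such genes reached 50% or more in 4T1-U1-ASO against 5 in 4T1. The summed usage was higher in genes with more listed sites, with medians of 5.71%, 11.2%, 15.5% and 20.6% in 4T1-U1-ASO for genes with 1, 2, 3 and 4 or more, and of 0.823%, 2.30%, 2.63% and 4.11% in 4T1. A sum over more sites is larger by construction, so these medians do not show that single sites of such genes were used more. Median last-exon reads of the same classes were 249, 359, 332 and 601 in 4T1-U1-ASO and 264, 389, 372 and 504 in 4T1, lowest in genes with 1 site, and the part of read depth in how many sites were listed was not tested.

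Neither end of the gene led in these counts. Among 229 genes with 2 or more sites, all raised, the site most used in 4T1-U1-ASO was the one nearest the 5′ end in 96 and nearest the 3′ end in 94, and in the 142 genes with exactly 2 sites it was the 5′ one in 70. In Tra2a the 8 sites spanned 11307 bases and, as summed IPA reads over those plus the last-exon reads, together took 54.9% ± 3.53 in 4T1-U1-ASO and 4.64% ± 3.56 in 4T1, mostly through sites 3 and 8. Chka, choline kinase alpha, had the highest use at its second site, with 631 and 585 IPA reads in the 4T1-U1-ASO libraries and 10 and 52 in the 4T1 libraries. Its 9 sites together took 59.8% ± 2.93 in 4T1-U1-ASO and 20.1% ± 13.4 in 4T1 (SD, n = 2 each). Anxa3, annexin A3, had 9 weak sites, the strongest of which, site 4, stood at 6.01% and 4.99% in the 4T1-U1-ASO libraries and at 0.182% and 0.406% in the 4T1 libraries, and together they took 11.2% ± 0.591 against 1.11% ± 0.490. Zwint, a kinetochore protein, had 7 sites that together took 35.4% ± 1.94 in 4T1-U1-ASO and 9.63% ± 4.75 in 4T1.

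In 25 genes some sites were raised and others lowered, against the same last exon. All lowered sites lay on the 5′ side of every raised site in 14 of these genes and on the 3′ side in 10. Raised and lowered sites were interleaved in 1. At Uchl5, whose first site was lowered, site 2 had 27 and 19 IPA reads in the 4T1-U1-ASO libraries against 4 and 5 in the 4T1 libraries. Appl2, an endosomal adaptor, had few reads, with 2 and 0 at the first site in the 4T1-U1-ASO libraries against 7 and 5 in the 4T1 libraries, and 8 and 12 at the second against 0 and 0. The other genes with both directions included the chaperone genes Cct4, Cct8 and Hsp90ab1, the RNA-binding protein genes Rbm39 and Taf15, and the ubiquitin ligase gene Nedd4.

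**Figure D3:**
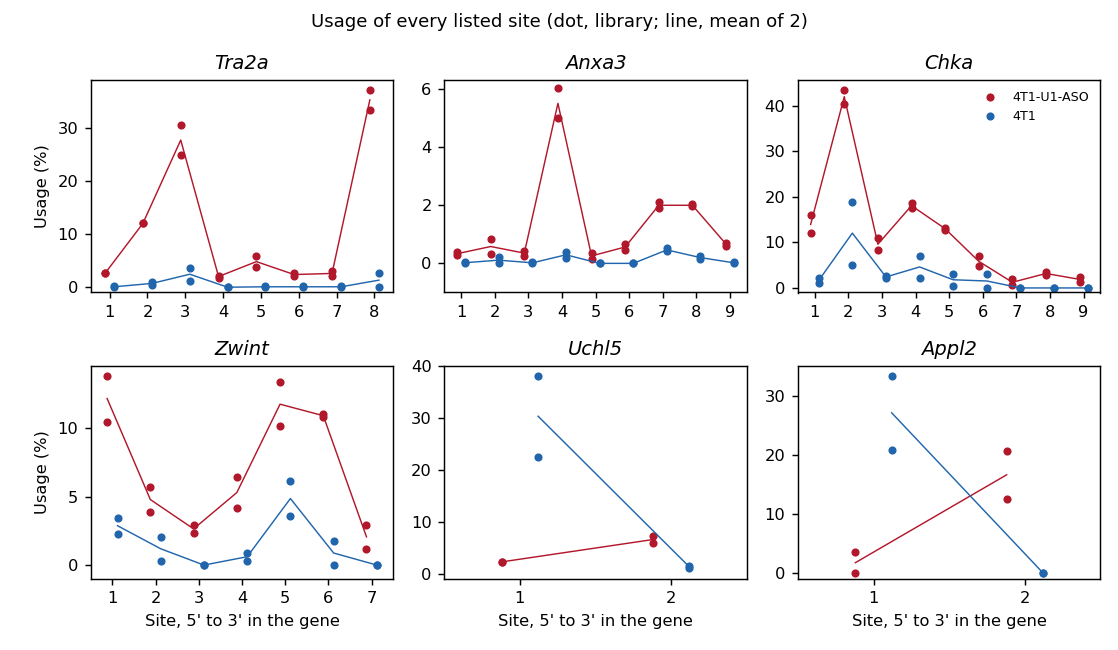
Usage (percent) of every listed site in Tra2a, Anxa3, Chka, Zwint, Uchl5 and Appl2, numbered from the 5′ end, with dots for libraries and lines for the mean of 2, 4T1-U1-ASO in red and 4T1 in blue. All sites of Tra2a, Anxa3, Chka and Zwint are raised; in Uchl5 and Appl2 the first site is lowered and the second is raised.

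Gene functions were read from 23 lists of genes, chosen with earlier results of these data known, and each is described by its count beside the 87.6% of all listed sites that were raised. Lists of the splicing machinery held raised sites almost only. The U1 particle and its helpers had 12 raised and 0 lowered sites in 7 genes, SR proteins and their relatives 28 and 0 in 13, other spliceosome proteins 19 and 0 in 16, and hnRNP and related RNA-binding proteins 33 and 2 in 20. SR genes also had more sites each, 2.15 per gene against 1.38 over all listed genes, and the cytoskeleton genes had 2.10. Of the SR sites 8 lay in Tra2a, and of the U1 sites at least 6 lay in Luc7l2. Sites of 1 gene share its last exon, so the counts and medians of these lists lean on single genes. The median usage of the U1 list was 9.24% in 4T1-U1-ASO and 0.522% in 4T1, and that of the SR list 7.29% and 0.645%, where all listed sites had 4.76% and 0.998%.

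Within the U1 list, Rbm25, a U1-associated splicing regulator, had 61 and 49 IPA reads in the 4T1-U1-ASO libraries against 0 and 3 in the 4T1 libraries. Tia1, an RNA-binding protein that aids recruitment of U1, had 35 and 44 in the 4T1-U1-ASO libraries against 0 and 1 in the 4T1 libraries. Snrpc encodes U1-C, a protein of the U1 particle itself, and its site had a usage of 10.5% ± 0.315 in 4T1-U1-ASO and 2.65% ± 1.16 in 4T1 (SD, n = 2 each). Srrm2, a large scaffold of nuclear speckles in the SR list, had 89 and 74 IPA reads in the 4T1-U1-ASO libraries against 4 and 10 in the 4T1 libraries. Among hnRNP genes, Hnrnph1 was already well used, with 68.2% ± 0.621 in 4T1-U1-ASO and 41.1% ± 1.87 in 4T1, and Pspc1, a paraspeckle protein, had 29.4% ± 2.40 in 4T1-U1-ASO and 8.27% ± 3.34 in 4T1. In the spliceosome, Cdc5l had 41.6% ± 2.60 in 4T1-U1-ASO and 16.7% ± 0.737 in 4T1, and Sf3b1, of the U2 particle, 6.30% ± 0.319 and 0.789% ± 0.251.

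Factors of cleavage and polyadenylation had 14 raised and 2 lowered sites in 11 genes. Cstf3, a subunit of the cleavage stimulation factor, known for an intronic poly(A) site that regulates it, had a usage of 15.4% and 5.98% in the 4T1-U1-ASO libraries and of 0% and 1.09% in the 4T1 libraries. Pabpc1, the cytoplasmic poly(A)-binding protein, had 702 and 683 IPA reads in the 4T1-U1-ASO libraries against 189 and 200 in the 4T1 libraries and a usage of 12.6% and 11.4% against 4.48% and 2.92%. Cpeb3, a binder of cytoplasmic polyadenylation elements, went the other way, at 69.7% and 41.7% in the 4T1-U1-ASO libraries and 90.5% and 90.9% in the 4T1 libraries.

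Raised sites also made up all 24 sites of the nuclear pore and transport list, in 17 genes, and 24 of 25 cell cycle sites. Tpr, a nuclear basket protein, had 186 and 202 IPA reads in the 4T1-U1-ASO libraries against 4 and 17 in the 4T1 libraries, and Cenpf, a kinetochore protein, 103 and 75 against 1 and 3. Chromatin regulators had 29 raised and 2 lowered sites, with Hdac2, a histone deacetylase, at 33.1% ± 0.281 in 4T1-U1-ASO and 14.9% ± 0.417 in 4T1 and Kdm1a, a histone demethylase, at 23.7% ± 5.10 and 6.82% ± 1.29. RNA polymerase II and elongation factors had 17 raised and 2 lowered, small GTPases and their regulators 31 and 3, MAP kinase and PI3K-mTOR signalling 13 and 2, and the cytoskeleton list 61 and 4. Ubiquitin enzymes, the list with most genes (43), had 55 raised and 7 lowered sites. Fbxo3, a ubiquitin ligase subunit, was at 44.7% ± 3.61 in 4T1-U1-ASO and 14.2% ± 0.419 in 4T1, while Mdm4, a p53 inhibitor, was at 5.44% ± 0.586 in 4T1-U1-ASO and 25.7% ± 9.62 in 4T1.

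Lowered sites took a larger share in some other lists than the 12.4% over all listed sites. Membrane transporters had 15 raised and 6 lowered sites in 19 genes, the mitochondrial ribosome and respiratory chain 19 and 6 in 20, DNA damage and repair 9 and 3 in 9, and translation factors and ribosomal proteins 25 and 5 in 19. Slc11a2, an iron transporter, had 24 and 29 IPA reads in the 4T1-U1-ASO libraries against 56 and 80 in the 4T1 libraries. Rplp2, a ribosomal stalk protein, had 60.4% ± 4.90 in 4T1-U1-ASO and 82.5% ± 0.914 in 4T1, whereas Eif4g2, a translation initiation factor, had 42.6% ± 1.36 in 4T1-U1-ASO and 21.5% ± 5.74 in 4T1. Ercc1, a nucleotide excision repair nuclease subunit, had 8.86% ± 2.81 in 4T1-U1-ASO and 18.3% ± 1.91 in 4T1. Of genes tied to the mesenchymal state and metastasis, 14 sites were raised and 2 lowered in 9 genes, about the share over all listed sites. Fn1, fibronectin, had 133 and 110 IPA reads in the 4T1-U1-ASO libraries against 46 and 29 in the 4T1 libraries, and Tgfb1, a growth factor of this state, 1 and 0 against 11 and 17. These shares were not tested between lists.

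RNA helicases had 20 raised and 3 lowered sites in 17 genes, mRNA decay factors 11 and 1 in 7, zinc finger and BTB regulators 17 and 3 in 10, and genes of ER, Golgi and endosome traffic 26 and 1 in 23. Cnot3, a subunit of the deadenylase complex that shortens poly(A) tails, had a usage of 35.0% and 37.5% in the 4T1-U1-ASO libraries and of 6.06% and 8.33% in the 4T1 libraries. Dhx37, an RNA helicase of ribosome assembly, had 63.6% and 57.7% in the 4T1-U1-ASO libraries and 25.6% and 14.6% in the 4T1 libraries. Its IPA reads were few, 14 and 15 in 4T1-U1-ASO against 11 and 6 in 4T1, and were not called changed under either scaling. The last exon of Dhx37 had 8 and 11 reads against 32 and 35. Canx, the ER chaperone calnexin, had 31.8% and 29.0% in the 4T1-U1-ASO libraries and 20.2% and 13.4% in the 4T1 libraries. The groups did not overlap at these 3 sites, as at nearly all listed sites. Lowered sites in these and other lists included Zfp451, at 12.2% and 7.52% in the 4T1-U1-ASO libraries against 32.5% and 37.0% in the 4T1 libraries, and Snx12, a sorting nexin of endosomes, at 67.8% and 55.3% against 93.2% and 92.2%. Map3k10, a kinase upstream of JNK, was at 17.2% and 20.6% in the 4T1-U1-ASO libraries against 45.5% and 55.6% in the 4T1 libraries. In the respiratory chain Ndufab1, the mitochondrial acyl carrier protein, was at 91.0% and 94.9% in the 4T1-U1-ASO libraries against 81.5% and 81.4% in the 4T1 libraries. Its raised site had fewer IPA reads in 4T1-U1-ASO, 151 and 185 against 233 and 241 in 4T1, while the last exon had 15 and 10 reads against 53 and 55. Ndufa1, a complex I subunit, was at 6.60% and 5.88% against 14.7% and 14.8%.

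**Figure D4:**
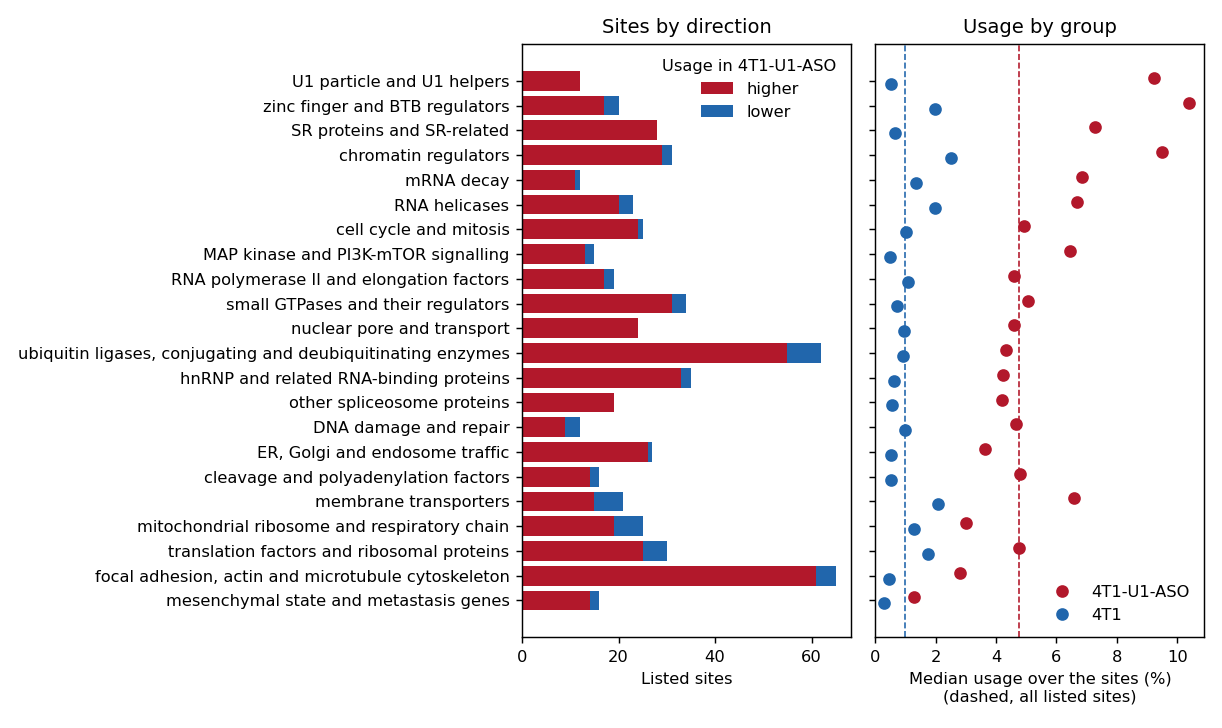
Left, number of listed sites raised (red) and lowered (blue) in 4T1-U1-ASO for 22 gene lists with more than 1 gene; right, their median usage (percent) in 4T1-U1-ASO (red) and 4T1 (blue), with dashed lines for all listed sites at 4.76% and 0.998%. The U1, SR, other spliceosome and nuclear pore lists have no lowered site.

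Last-exon reads depended on how the libraries were scaled. The authors' size factors were 1.25 and 1.27 for the 4T1-U1-ASO libraries and 0.722 and 0.967 for the 4T1 libraries, whereas peak-list reads on chromosomes 1 to 19 relative to their geometric mean were 0.975 and 0.994 for the 4T1-U1-ASO libraries and 0.960 and 1.07 for the 4T1 libraries. With size factors the median last-exon change over 1131 genes was -0.66 on the log2 scale, and 106 last exons rose (9.37%) and 621 fell (54.9%) in 4T1-U1-ASO (edgeR quasi-likelihood, Benjamini-Hochberg adjusted p under 0.05). With peak-list scaling the median was -0.02, a shift of 0.64, and 207 rose (18.3%) and 282 fell (24.9%). All 282 that fell with peak lists also fell with size factors, 104 rose under both, and 0 were called in opposite directions. TMM scaling of the same reads gave 268 that rose and 270 that fell. With size factors and 1 library left out, 62 rose and 359 fell without 4T1-U1-ASO replicate 1, 65 and 349 without 4T1-U1-ASO replicate 2, 141 and 707 without 4T1 replicate 1, and 204 and 688 without 4T1 replicate 2. More last exons fell than rose with size factors and with peak lists. The about equal counts with TMM follow from its factors, which were computed from these listed last exons alone and centre their changes near 0. Which scaling is nearest to RNA per cell was not tested, since the labels name no spike-in. The labels give 5 µg of total RNA for each of these bulk libraries, so their reads measure neither cell number nor RNA per cell.

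Last exons were lower in genes with raised sites than in genes with lowered sites under both scalings. Genes with raised sites only (955) had a median last-exon change of -0.73 with size factors and -0.10 with peak lists, those with lowered sites only (151) 0.26 and 0.89, and the 25 with both -0.53 and 0.08. In the first class 57 last exons rose and 565 fell with size factors, and 135 rose and 260 fell with peak lists. In the second 43 rose and 44 fell with size factors, and 62 rose and 17 fell with peak lists. The last exon is the denominator of usage, so this difference between classes is in part fixed by how the sites were chosen. The median did not follow the number of raised sites in step, with -0.72, -0.79, -0.79 and -0.57 for genes with 1, 2, 3 and 4 or more under size factors and -0.09, -0.16, -0.15 and 0.05 under peak lists.

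By function, the last exons of other spliceosome proteins had a median change of -1.35 with size factors and -0.70 with peak lists, and 13 and 10 of 16 genes fell while 0 rose. Those of translation factors and ribosomal proteins had -1.10 and -0.45, with 17 and 10 of 19 fallen and 0 risen. RNA helicases had -1.34 and -0.70, with 13 and 9 of 17 fallen and 0 and 1 risen. These medians lay below those of all genes, at -0.66 and -0.02, under both scalings. Over all 1131 genes 54.9% fell and 9.37% rose with size factors, and 24.9% fell and 18.3% rose with peak lists. MAP kinase and PI3K-mTOR genes lay above them, at 0.09 and 0.74, where 2 rose and 3 fell of 12 with size factors, and 4 rose and 0 fell with peak lists. The U1 list had -0.56 and 0.08, close to all genes, with 2 risen and 4 fallen of 7 with size factors and 1 and 2 with peak lists, so its falls were also near the share over all genes. No test was run between lists.

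**Figure D5:**
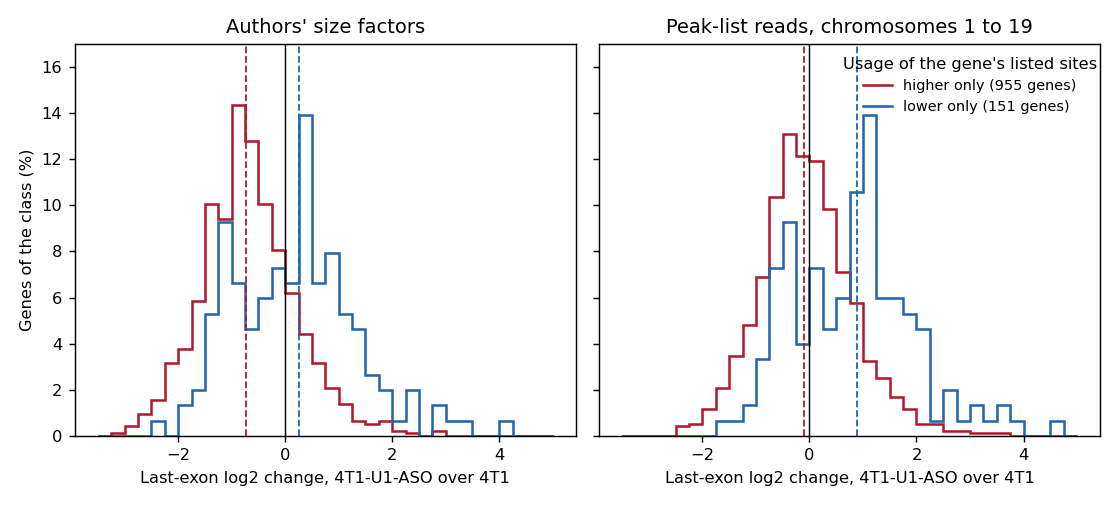
Distribution of the log2 change of last-exon reads, 4T1-U1-ASO over 4T1, in percent of the 955 genes with raised sites only (red) and the 151 with lowered sites only (blue), under the authors' size factors and under peak-list scaling; dashed lines are medians. Both distributions shift to the right under peak-list scaling, with medians of -0.73 and 0.26 under size factors and -0.10 and 0.89 under peak lists.

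The last exons with the largest rise among those called, with a mean of at least 20 reads, included those of Ago3, Smc6, Rabgap1l and Nupr1. Nupr1, a stress-induced nuclear protein, had 1141 and 1251 last-exon reads in the 4T1-U1-ASO libraries and 93 and 118 in the 4T1 libraries, a log2 change of 2.92 ± 0.19 with size factors and 3.55 ± 0.16 with peak lists (edgeR adjusted p = 0.000298 and 0.00171). Both 4T1 libraries were alike there. Smc6, of the SMC5/6 complex of DNA repair, had 427 and 424 last-exon reads in the 4T1-U1-ASO libraries and 7 and 51 in the 4T1 libraries, and rose by 3.35 ± 0.49 on the log2 scale with size factors (edgeR adjusted p = 0.000962), with 2.67 without 4T1 replicate 1 and 5.10 without 4T1 replicate 2. Rabgap1l, a Rab GTPase-activating protein gene, had 153 and 139 in the 4T1-U1-ASO libraries and 1 and 22 in the 4T1 libraries, with 3.12 ± 0.60 (edgeR adjusted p = 0.00285), 2.34 without 4T1 replicate 1 and 6.27 without 4T1 replicate 2. Ago3, an Argonaute protein of small RNA silencing, had 64 and 64 in the 4T1-U1-ASO libraries and 4 and 1 in the 4T1 libraries. It rose by 4.03 ± 0.51 (edgeR adjusted p = 0.000580), with 5.48 without 4T1 replicate 1 and 3.17 without 4T1 replicate 2. At 32 of the 106 last exons that rose with size factors, 4T1 replicate 1 was over 2-fold below replicate 2, and the part of that library in the result was not tested beyond leaving it out, when 141 last exons rose.

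The largest falls were at Tm4sf1, Cars2, Thbs1, Hsp90ab1 and Mcm7. Hsp90ab1, the constitutive cytosolic HSP90, had 2094 and 2150 last-exon reads in the 4T1-U1-ASO libraries and 9837 and 10519 in the 4T1 libraries, a log2 change of -2.86 ± 0.25 with size factors and -2.22 ± 0.10 with peak lists (edgeR adjusted p = 0.000298 and 0.00171). Tm4sf1, a tetraspanin-like surface protein, had 651 and 515 in the 4T1-U1-ASO libraries and 3277 and 3198 in the 4T1 libraries. Thbs1, the secreted thrombospondin 1, had 161 and 173 in the 4T1-U1-ASO libraries and 713 and 939 in the 4T1 libraries. Mcm7, a subunit of the replicative helicase, had 84 and 64 in the 4T1-U1-ASO libraries and 331 and 325 in the 4T1 libraries. All 5 fell under both scalings, from -2.75 to -3.08 with size factors and from -2.10 to -2.43 with peak lists. Of the genes with many sites, Chka rose by 1.45 ± 0.18 with size factors and 2.09 ± 0.15 with peak lists (edgeR adjusted p = 0.000580 and 0.00354). Tra2a and Anxa3 fell by 0.57 and 0.53 with size factors, and were at 0.05 and 0.11 with peak lists, where neither passed the test.

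IPA and last-exon reads were then fitted separately, to show which of the 2 had moved at each listed site; both share reads with the ratio the sites were chosen by. With size factors IPA reads rose at 891 of all listed sites (57.1%) and fell at 189 (12.1%), and with peak-list scaling at 1217 (78.0%) and 148 (9.48%) (edgeR adjusted p under 0.05). TMM scaling gave 325 and 290, with factors computed from the IPA reads of the listed sites alone. Most of these sites were selected as raised, so such factors by construction draw the 2 counts together. Without 1 library and with size factors, 412 and 138 rose and fell without 4T1-U1-ASO replicate 1, 409 and 122 without 4T1-U1-ASO replicate 2, 615 and 146 without 4T1 replicate 1, and 456 and 154 without 4T1 replicate 2. Among the 1368 raised sites under size factors, IPA reads rose while the last exon was not called lower at 547, both changed at 344, and the last exon fell without a rise of IPA at 470. Under peak lists these counts were 1012, 203 and 151. IPA reads fell at 15 raised sites with size factors and at 6 with peak lists, and rose at 0 and 2 lowered sites. In the edgeR fits with all 4 libraries, IPA reads thus rose at most raised sites with size factors and with peak lists. Their median change was 1.90 and 2.50 on the log2 scale. With size factors, fewer of all listed sites rose in DESeq2 (279). Where only sites with a mean of at least 10 reads were kept, 376 rose. That fit left the other sites untested, so its count cannot be set against the 891. Among the 193 lowered sites under size factors, IPA reads fell at 174, at 37 of them with a rise of the last exon. Under peak lists IPA reads fell at 142, at 39 with a rise of the last exon, and at 45 the last exon rose without a fall of IPA.

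Peak lists of the other lines of the series, 67NR, 4T07 and 168FARN, were searched for these sites on chromosomes 1 to 19, with an overlap of at least 1 base. The list of 67NR replicate 2 was searched for 641 of the 1338 raised and 97 of the 185 lowered sites only, and the sites on its other chromosomes were not analysed in it. A peak of at least 1 such library lay at 889 of 1338 raised sites (66.4%) and at 173 of 185 lowered sites (93.5%), and at 99 of the 198 raised sites without IPA reads in 4T1 (50.0%). The lists leave out many sites that have reads, since the library's own list overlapped 73.2% and 68.4% of the sites with IPA reads in the 4T1-U1-ASO libraries and 45.9% and 47.2% in the 4T1 libraries, so the lack of a peak is not a lack of reads. The tables of the line comparisons shared few sites with this one. They overlapped 20 of 122 sites listed for 4T1 against 67NR (16.4% of that list, 1.28% of the 1561), 12 of 85 for 4T1 against 168FARN (14.1% and 0.769%) and 18 of 214 for 4T07 against 67NR (8.41% and 1.15%). For 4T07 against 168FARN, 39 of 329 sites (11.9%) overlapped 42 of the 1561 (2.69%). The comparisons of 4T1 with 67NR and with 168FARN use the same 4T1 libraries as this one.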

How the data were processed

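Polyadenylated RNA was sequenced at its 3′ ends, 2 libraries per group, as 50-nt single reads after 13 PCR cycles, per the labels' protocols. Tools listed in the submitters' processing notes, with no role for each, are DESeq2 1.4.5, bedtools 2.17.0, SAMtools 1.1 and Bowtie2 2.2.5, and the build is mm9. The comparison tables deposited by the authors hold, per the file headers, a read signal normalized by size factors for each site and last exon and library, with a log2 fold change and its error, a test score, and p-values before and after adjustment. The peak lists deposited by the authors hold a whole-number read count per peak, after a filter that no label or header describes. The lists of 4T1 hold no peak on X, so peak-list scaling used chromosomes 1 to 19.

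From the deposited signal the value of 1 read was found in each library, and 100% of values came out as whole reads within a tolerance of 0.1 (largest deviation 0.00638). These reads gave usage and were fitted in R 4.3.3 by edgeR's quasi-likelihood test (edgeR 4.0.16, the authors' size factors, no low-count filter, adjusted p under 0.05): IPA relative to LE as an interaction, IPA alone, and LE alone with 1 row per gene. Since unlisted sites have no values here, adjustment ran over the sites the authors had kept. In data simulated for this comparison, IPA-to-LE changes of 1, 2 and 3 log2 units over 1561 sites were recovered at 10.6%, 59.7% and 77.6%, and LE changes of 1 and 2 log2 units over 1131 genes at 78.8% and 100%. Most simulated rows were unchanged, whereas every listed site was selected as changed, so these rates do not give the power of the fits here. Positions are those of the tables (mm9). All 1131 gene symbols matched a symbol or synonym of RefSeq (GRCm38.p6), used for names only; intronic position rests on the authors' tables. Site sequences are not printed, since no mm9 genome was used here.

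The members, gene lists and tests were chosen with earlier results of these data known. Named genes are, passing over chromosome 18, the 8 sites at each end of the authors' deposited log2 fold change and of the usage change (at least 20 reads in each library, groups not overlapping), the 5 genes with most sites, 4 genes with both directions, up to 4 sites per list, and the 5 last exons at each end. Some results that this rule names are not reported here. Other genes named with both directions were chosen after their values were seen. Alternatives were TMM, peak-list scaling, a mean of at least 10 reads, DESeq2 1.42.0, blocks, stricter authors' thresholds, merging of sites within 1000 bases, another pseudocount and leaving out each library; scaling to chromosomes 1 to 19 was added after seeing the data. Read counts without molecular identifiers are not independent molecules, so limits cover counting error only.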

Additional observations from a re-analysis of the deposited data

How the results depend on the processing

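The split by direction held at stricter authors' thresholds, with 827 raised and 124 lowered sites up to 0.05 and 317 and 50 up to 0.01; leaving out 1 library at a time gave 1367 to 1368 raised and 193 to 194 lowered sites. All 1561 sites passed the fit of IPA relative to LE in the authors' direction, as their selection made likely, and without 1 library 1066 to 1316 raised and 151 to 185 lowered sites did. In the fit of IPA reads alone, 325 sites rose and 290 fell with TMM, 376 and 101 with a mean of at least 10 reads, and 279 and 114 with DESeq2, and 409 to 615 rose and 122 to 154 fell without 1 library. For last exons, 268 rose and 270 fell with TMM and 194 and 293 with whole peak lists, against 207 and 282 with chromosomes 1 to 19, and 62 to 204 rose and 349 to 707 fell without 1 library. The median last-exon change on the log2(mean + 1) scale was -0.66, and it was 0.0126 with TMM, -0.0540 with whole peak lists and -0.0224 with chromosomes 1 to 19, and lay between -0.71 and -0.62 without 1 library. TMM factors of the separate IPA and last-exon fits came from the listed reads alone, which by construction draws the middle of the changes to no change. In the IPA fit with a mean of at least 10 reads, the other sites were not tested. The last exons of Anxa3 and Tra2a turned to 0.149 and 0.0991 with TMM, 0.0812 and 0.0231 with whole peak lists and 0.113 and 0.0545 with chromosomes 1 to 19. In the ratio fit all 148 named sites held their call in every setting with all 4 libraries, and some lost it without 1 library. Rescaling a library moves IPA and LE alike, so the scaling settings could hardly change a call. The named sites were also chosen on these same reads. With the replicate block 682 sites rose and 172 fell in IPA reads and 108 and 586 last exons rose and fell; the labels do not pair the numbers, and deviations of same-numbered libraries correlated at -0.03 for IPA and -0.04 for last exons. The cause of these changes was not tested. Depth limits the precision at single sites, where the median raised site had 14.3 IPA reads in 4T1-U1-ASO and 2.50 in 4T1.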
